A study of Mus musculus with 30 samples.

Results

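The 39 protein-coding Hox genes of the mouse were examined for acetylation of lysine 27 on histone H3 (H3K27ac), which is found at promoters and enhancers in use, in 2 mouse lung adenocarcinoma cell lines. The members were the protein-coding genes of the GENCODE annotation of mm10 whose symbol is Hox, a cluster letter from a to d and a number, and they made up 39 of 21938 protein-coding genes on the main chromosomes. The Hoxa cluster holds 11 of them, the Hoxb cluster 10, the Hoxc cluster 9 and the Hoxd cluster 9. The cell lines, CK1750 and Tnm2, were grown with DMSO, the solvent, or with 1 µM UNC0638, which blocks G9a and Glp, enzymes that place methyl groups on lysine 9 of histone H3. The series has 30 samples in 12 groups, of which the 9 H3K27ac samples form 4 groups (3 of CK1750 DMSO and 2 in each other group), and 21 samples of H3K9me2 and input DNA were not analysed here. Per the labels, the samples in each group share 1 peak list made by merging, so that replicate error cannot be given for what follows and lists were compared without a test. Each list is named by line and treatment, and values given 4 in a row are in the order CK1750 DMSO, CK1750 UNC0638, then Tnm2 DMSO, Tnm2 UNC0638. The CK1750 DMSO samples carry 2 replicate numbers, since 2 of the 3 are runs of the same replicate, and both CK1750 UNC0638 samples carry the same number. Neither the genotype of the lines nor the length of treatment is given in the labels.

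Hox genes encode transcription factors with a homeodomain that give cells along the body axis their positional identity. They lie side by side in 4 clusters, numbered as 13 paralogue groups, and within a cluster the order of the genes on the chromosome follows the order in which they are used from head to tail. Silent Hox clusters are a textbook target of Polycomb repression, which places methyl groups on the same lysine 27 that carries the acetyl mark when genes are active. In the developing lung, members of the anterior and central groups, Hoxa5 in particular, are known for their roles in the mesenchyme that surrounds the airways.

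No Hox gene had an H3K27ac peak near a start site in 3 of the 4 lists, and 1 gene did in the other list. Within 2.5 kb of an annotated start site, 0 of 39 members had a peak in CK1750 DMSO, 0 in CK1750 UNC0638, 0 in Tnm2 DMSO and 1, Hoxc6, in Tnm2 UNC0638. The background over all protein-coding genes was 50.04%, 49.12%, 49.43% and 41.28%. Put otherwise, 38 of the 39 members (97.4%) had a peak in none of the lists, against 46.0% of all protein-coding genes, and no member was among the 39.3% of genes with a peak in all 4 lists. By the rule of 3 (3 of 39), an approximate upper limit, a count of 0 of 39 allows a share of up to 7.69%. The exact (Clopper-Pearson) 95% interval, which has a lower and an upper limit, reaches 9.03%. The count of 1 is a share of 2.56%, with an exact interval from 0.0649 to 13.5%. These limits cover counting error only, and members of a cluster are neighbours and not independent of each other.

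The sequence around the one peak in a Hox cluster and the sequence before the start sites of 3 members without a peak, 1 from each of the other clusters, are shown for the density of CpG dinucleotides, which mark many promoters of vertebrates. Hoxa5 is the member with the highest CpG ratio, and Hoxb4 and Hoxd4 belong to the same paralogue group. Mtx2, a gene for a protein of the mitochondrial outer membrane that lies next to the Hoxd cluster and had a peak at its start site in every list, is shown for contrast. Capitals mark CpG. The peak sequence is the middle of the peak on the plus strand of chr15:102999325-102999624, and the others are the bases before the start of the RefSeq transcript, on the strand of the gene, all from GRCm38.p6.
Hoxc6 peak (chr15:102999325-102999624, plus strand): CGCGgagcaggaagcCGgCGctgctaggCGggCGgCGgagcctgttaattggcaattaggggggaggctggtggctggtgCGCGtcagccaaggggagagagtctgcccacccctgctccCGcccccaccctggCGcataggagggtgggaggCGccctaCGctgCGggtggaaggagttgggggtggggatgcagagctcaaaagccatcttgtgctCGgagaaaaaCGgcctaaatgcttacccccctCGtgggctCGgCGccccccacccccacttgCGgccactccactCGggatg
Hoxa5 (chr6:52204588-52204837, minus strand): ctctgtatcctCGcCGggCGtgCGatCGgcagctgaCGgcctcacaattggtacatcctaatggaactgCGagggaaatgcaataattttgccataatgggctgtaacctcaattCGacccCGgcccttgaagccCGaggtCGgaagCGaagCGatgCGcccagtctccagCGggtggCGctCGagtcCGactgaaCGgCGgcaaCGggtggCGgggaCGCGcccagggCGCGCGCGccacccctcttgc
Hoxb4 (chr11:96318017-96318266, plus strand): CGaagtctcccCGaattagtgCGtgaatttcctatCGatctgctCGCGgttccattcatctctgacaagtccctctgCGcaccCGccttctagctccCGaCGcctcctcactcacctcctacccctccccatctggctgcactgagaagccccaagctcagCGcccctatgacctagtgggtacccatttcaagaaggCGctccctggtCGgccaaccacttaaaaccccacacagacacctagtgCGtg
Hoxd4 (chr2:74721728-74721977, plus strand): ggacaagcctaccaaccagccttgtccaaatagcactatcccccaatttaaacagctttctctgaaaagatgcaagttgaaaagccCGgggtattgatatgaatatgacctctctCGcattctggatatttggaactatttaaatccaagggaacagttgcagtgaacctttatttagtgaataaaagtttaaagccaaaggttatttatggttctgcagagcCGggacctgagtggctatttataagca
Mtx2 (chr2:74825562-74825802, plus strand): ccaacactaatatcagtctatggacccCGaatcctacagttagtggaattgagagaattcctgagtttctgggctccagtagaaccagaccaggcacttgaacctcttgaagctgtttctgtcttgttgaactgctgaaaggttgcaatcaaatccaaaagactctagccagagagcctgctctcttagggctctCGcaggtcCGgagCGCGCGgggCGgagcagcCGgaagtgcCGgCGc
The 250 bases before Hoxa5 held 28 CpGs at 63.6% GC, those before Hoxb4 14 CpGs at 58.0% GC and those before Hoxd4 3 CpGs at 40.4% GC. The 241 bases before Mtx2, which end where its first exon begins, held 10 CpGs at 53.1% GC. The 300 bases from the Hoxc6 peak held 21 CpGs at 67.7% GC. The stretch before Hoxa5 thus held more CpGs than that before Mtx2, and it had no peak.

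Across the whole clusters, 1 peak was found in 1 list. Each span was taken from the outermost bounds of the members with 2.5 kb added on each side. The Hoxa span (chr6:52153090-52263380, 110.3 kb), the Hoxb span (chr11:96191816-96370756, 178.9 kb) and the Hoxd span (chr2:74665810-74767642, 101.8 kb) held 0 peaks in each of the 4 lists. The Hoxc span (chr15:102918603-103039352, 120.8 kb) held 0 peaks in CK1750 DMSO, CK1750 UNC0638 and Tnm2 DMSO, and 1 peak of 590 bp in Tnm2 UNC0638. Together the spans cover 511.8 kb. Across the genome, peaks covered 1.05% of all bases in CK1750 DMSO, 1.16% in CK1750 UNC0638, 1.17% in Tnm2 DMSO and 0.84% in Tnm2 UNC0638. The spans held 0 unknown bases in the reference, their GC content, of up to 49.9%, was above the 41.7% of the genome in every cluster, and repeats were masked in 13.3% to 24.5% of their bases against 36.4% of the genome. The authors' peak numbers ran without a gap in every list, with 0 numbers missing up to 27367 in CK1750 DMSO, 24601 in CK1750 UNC0638, 30641 in Tnm2 DMSO and 18794 in Tnm2 UNC0638.

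**Figure D1:**
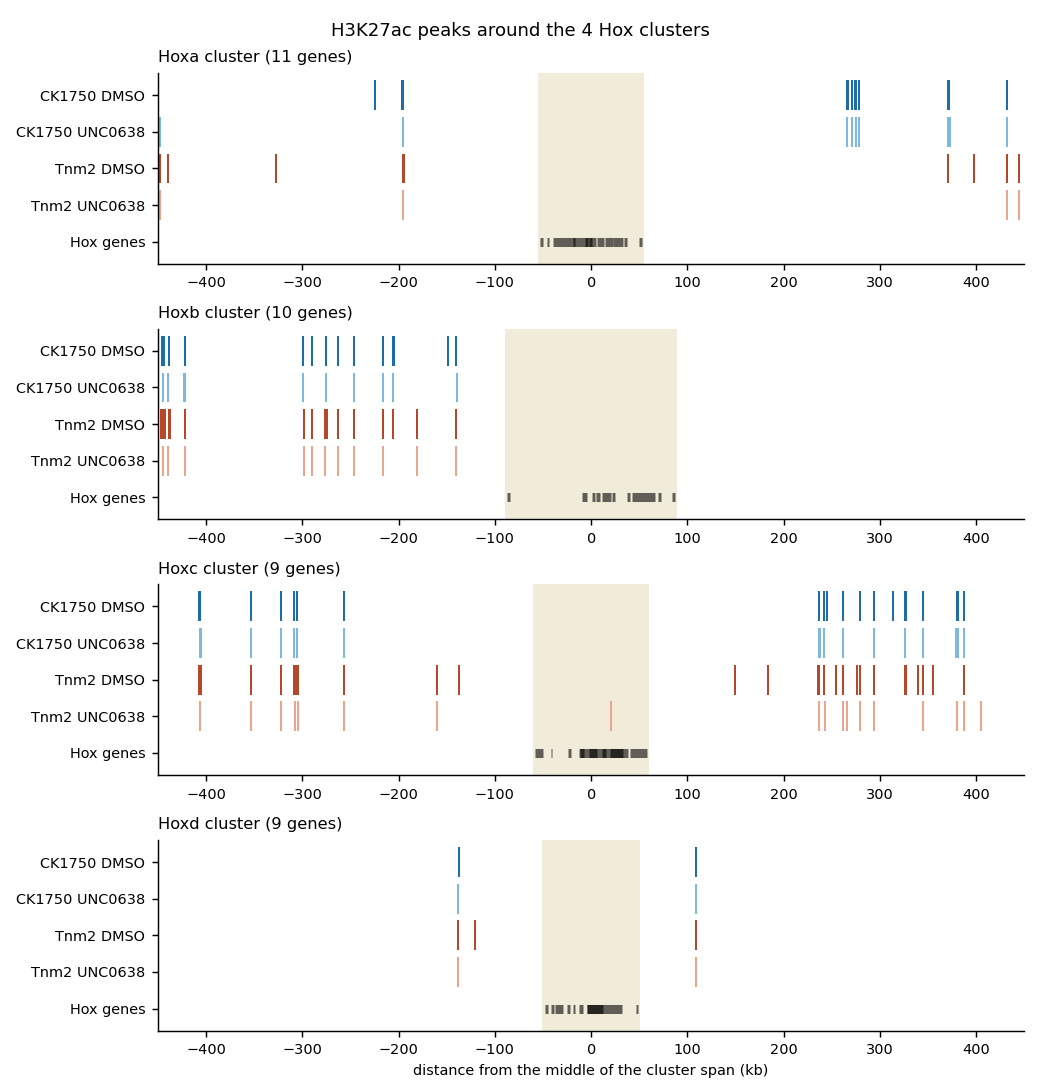
H3K27ac peaks around the 4 Hox clusters. The x axis is the distance from the middle of each cluster span in kb, each tick is the middle of a peak, each row of ticks is 1 of the 4 lists, black bars are the Hox genes and the shaded area is the span. Inside the shaded areas there is 1 tick, in the Hoxc cluster in Tnm2 UNC0638. Ticks stand on both sides of the Hoxa, Hoxc and Hoxd clusters. To the right of the Hoxb cluster the next peak, 376.1 kb or more beyond the span, falls outside the panel.

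The clusters also hold noncoding genes. The spans hold start sites of 50 further annotated genes, of which 7 are miRNA genes, 3 are protein-coding models that are no members by symbol, 19 are of type misc_RNA and 21 are of other types, among them the long noncoding RNAs Hotair in the Hoxc cluster, Hottip and Hotairm1 in the Hoxa cluster and Haglr in the Hoxd cluster. With at most 1 peak in a span, their count was largely fixed beforehand, and 0 of the 50 had a peak within 2.5 kb of a start site in each list. Over all 33475 genes not annotated as protein coding the shares were 11.6%, 11.3%, 12.1% and 9.43%. The miR-10 and miR-196 families are known to target Hox transcripts. Their mature 5p arms and that of miR-615 are shown from RefSeq with the seed (bases 2 to 8) in capitals. Members of each of the 2 families share a seed across clusters.
miR-10a-5p (Hoxb cluster): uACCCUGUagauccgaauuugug
miR-10b-5p (Hoxd cluster): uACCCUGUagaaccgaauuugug
miR-196a-5p (Hoxb and Hoxc clusters): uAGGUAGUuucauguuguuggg
miR-196b-5p (Hoxa cluster): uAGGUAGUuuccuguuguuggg
miR-615-5p (Hoxc cluster): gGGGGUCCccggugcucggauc
The miR-10 pair shares the seed ACCCUGU, and the 2 distinct miR-196 sequences share AGGUAGU. The mature miR-10a-5p lay 175.6, 175.5, 175.5 and 176.2 kb from the nearest peak, and miR-10b-5p lay 99.4, 99.3, 99.2 and 99.1 kb away. For miR-196b-5p the distances were 216.7, 216.7, 215.9 and 216.8 kb. The copy of miR-196a-5p in the Hoxc cluster lay 241.4, 241.5, 131.9 and 25.8 kb away, and miR-615-5p 199.9, 199.9, 113.5 and 15.2 kb. The shift between lists was under 1 kb at the other loci given here and over 100 kb at these 2 of the Hoxc cluster.

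The peak at Hoxc6 was weak and narrow within its list. Hoxc6 is a central member of the Hoxc cluster. The peak (chr15:102999180-102999769) had a score of 59.21, on a scale where the P value cutoff of the caller, 1e-05, is a score of 50 and a lower P value gives a higher score. Of the 18794 peaks in Tnm2 UNC0638, 2255 had a lower score, and 5.1% were narrower than its 590 bp, against a median width of 1040.5 bp. It held 30 CpGs at 64.9% GC, overlapped no annotated exon, and lay within introns of a Hoxc6 and a Hoxc5 transcript. It began 923 bp downstream of 1 Hoxc6 start site (chr15, 102998257) and ended 760 bp upstream of another (103000529), both of transcripts annotated as processed and not as protein coding. The protein-coding transcript of Hoxc6 starts 9.8 kb from the peak. With start sites of protein-coding transcripts alone, the count of Hox genes with a peak in Tnm2 UNC0638 was therefore 0. Requiring a score of 100 or more also gave 0.

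In neither line did a Hox gene have a peak with DMSO that was missing with UNC0638. The count was 0 of 39 in CK1750, where 2.43% of all protein-coding genes had such a pattern, and 0 of 39 in Tnm2, where 8.75% had it. Since no member had a peak with DMSO, no member could lose one. In the other direction, 0 of 39 members had a peak in CK1750 UNC0638 and not with DMSO, against 1.51% of all genes. Only genes without a peak with DMSO could show this pattern, and 3.03% of those did. In Tnm2 that count was 1, Hoxc6, against 0.597% of all genes (131 genes). Of the genes without a peak in Tnm2 DMSO, as all 39 members were, 1.18% had this pattern. Between the lines with DMSO, 0 members had a peak in CK1750 and not in Tnm2 (3.74% of all genes) and 0 in Tnm2 and not in CK1750 (3.14%). Of the genes without a peak in the other line, 7.39% and 6.28% had these patterns. With UNC0638, 0 members had a peak in CK1750 and not in Tnm2 (9.17% of all genes), and 1, Hoxc6 again, in Tnm2 and not in CK1750 (1.33%). Of the genes without a peak in the other line, 15.6% and 2.61% had these patterns, the latter beside 2.56% of the members. A single member is no result about the 39 as a group.

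Members differed in how far away the nearest one was. The median distance from a Hox start site to the nearest peak was 178.3, 178.3, 136.6 and 130.5 kb, the last of which was 151.5 kb without the peak at Hoxc6. Over all protein-coding genes the medians were 2.46, 3.46, 3.08 and 12.7 kb, the last over 21755 genes because the list of Tnm2 UNC0638 held no peak on chromosome Y. More than 20 kb separated the start site from a peak for 39 of 39 members in each of the first 3 lists and for 35 in Tnm2 UNC0638, against 38.1%, 39.6%, 37.9% and 45.4% of all genes. In CK1750 DMSO, 14.1% of all genes lay as far from a peak as the Hox median or farther. The corresponding shares were 15.5% in CK1750 UNC0638, 16.6% in Tnm2 DMSO and 20.3% in Tnm2 UNC0638. Distances of neighbouring members are set by the same flanking peaks and are not independent.

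**Figure D2:**
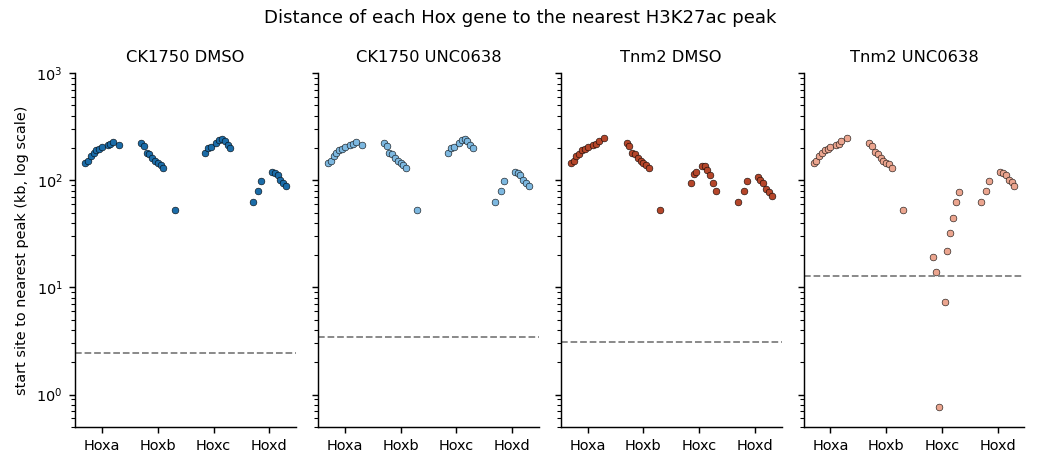
Distance of each Hox gene to the nearest H3K27ac peak. Each point is 1 gene, placed by cluster and, within a cluster, from low to high paralogue number; the y axis is the distance from the nearest start site in kb on a log scale, and the dashed line is the median over all protein-coding genes of that list. In the first 3 lists every point lies at 52.6 kb or more, and in Tnm2 UNC0638 the Hoxc genes descend towards Hoxc6 at 0.76 kb.

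In the Hoxa cluster, distances rose along the cluster up to Hoxa11 in CK1750 and up to Hoxa13 in Tnm2. Hoxa5, the member best known in lung, lay 191.2, 191.1, 190.4 and 191.3 kb from a peak. The 4 values differed by less than 1 kb, and the nearest peak in every list lay within 1.15 kb of the start of Skap2, an adaptor protein gene. Hoxa13, the most posterior member, which acts in the digits and the urogenital tract, lay 212.5, 212.2, 246.6 and 247.5 kb away. It was nearer to a peak in CK1750 than in Tnm2. On its side, towards Hibadh, a gene of valine breakdown, the first peak began 210.0 and 209.7 kb beyond the span in CK1750 and 315.5 and 375.9 kb beyond it in Tnm2.

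The Hoxb cluster looked alike in all 4 lists. Its isolated posterior member Hoxb13, known for its role in the prostate, was the nearest to a peak, at 52.7, 52.6, 52.6 and 53.3 kb, and that peak lay inside Ttll6, a gene for a tubulin-modifying enzyme. Hoxb4 lay 176.7, 176.6, 176.6 and 177.3 kb away. Hoxb1, at the other end, lay 224.2, 224.1, 224.1 and 224.8 kb away. On the side of Hoxb1 the next peak was 376.5, 376.4, 376.1 and 376.2 kb beyond the span, inside Skap1. The peak-free stretch that held the cluster measured 605.7, 605.5, 605.2 and 606.0 kb, the widest of the 4 clusters in the first 3 lists.

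The Hoxc cluster was the one that differed most between lists. In CK1750 its members lay 180.4 to 244.6 kb from a peak with DMSO and 180.5 to 244.5 kb with UNC0638. In Tnm2 they lay 79.6 to 136.6 kb away with DMSO and 0.76 to 78.1 kb away with UNC0638. Hoxc10, a posterior member, gave 244.6, 244.5, 125.3 and 32.4 kb, and Hoxc8, a central one, 222.9, 223.0, 136.6 and 7.29 kb. With DMSO, the flanking peaks in Tnm2 that shortened the distances lay 77.1 kb to the left of the span, with a score of 53.53, and 89.1 kb to the right, with a score of 77.77. In CK1750 DMSO the flanking peaks were at the start of Calcoco1, 196.4 kb to the left with a score of 252.29, and of Cbx5, a heterochromatin protein gene, 175.4 kb to the right with a score of 271.34. The distances in Tnm2 DMSO were thus set by 2 peaks with scores below 100. Beyond the right one, Smug1, 116.4 kb from the outermost member, had a peak in Tnm2 DMSO alone, with a score of 125.58. Distances without the 2 peaks were not computed. In Tnm2 UNC0638 the peak at Hoxc6, with its score of 59.21, was the nearest one for all 9 members, and without it they lay 101.4 to 180.5 kb from a peak.

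The Hoxd cluster lay between Lnpk and Mtx2, both with a peak in every list. Hoxd1 lay 62.5, 62.4, 62.3 and 62.2 kb from the peak at the start of Mtx2, whose scores were 1083.99, 932.31, 1230.09 and 572.07. Hoxd9, of the posterior class, lay 118.0, 118.0, 101.1 and 118.2 kb away. Hoxd13, a limb and digit gene at the other end, lay 88.6, 88.6, 71.7 and 88.8 kb away. The shorter value in Tnm2 DMSO came from a peak 69.2 kb to the left of the span with a score of 88.81. Lnpk, a gene of the endoplasmic reticulum on that side, had a peak in every list, with scores of 584.66, 627.46, 306.7 and 106.51. Evx2, the even-skipped relative that lies 8.75 kb from Hoxd13, had a peak in none of the 4 lists. Scores order peaks within a list and are not compared between lists.

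By position along the axis, the 12 anterior members (paralogue groups 1 to 4) lay at a median of 173.6, 173.5, 160.2 and 161.0 kb from a peak, the 11 central members (5 to 8) at 191.2, 191.1, 144.9 and 145.6 kb and the 16 posterior members (9 to 13) at 205.7, 205.5, 107.0 and 97.8 kb. The posterior class was the farthest in CK1750 and the nearest in Tnm2 DMSO, with ranges that overlapped those of the other classes in every list. In Tnm2 DMSO 1 peak with a score of 53.53 was the nearest for Hoxc9 to Hoxc13. Another, with a score of 88.81, was the nearest for Hoxd9 to Hoxd13. In Tnm2 DMSO the posterior members ranged from 52.6 to 246.6 kb and the anterior ones from 62.3 to 224.1 kb.

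Wider windows were tried to see at what distance members first met a peak. At 10, 25 and 50 kb the counts remained 0 of 39 in CK1750 DMSO, CK1750 UNC0638 and Tnm2 DMSO. In Tnm2 UNC0638 they were 2, 5 and 7, all in the Hoxc cluster, and 0, 0 and 0 without the peak at Hoxc6. At 50 kb, 72.2%, 70.6%, 72.2% and 66.1% of all protein-coding genes had a peak in the window. At 100 kb the Hox counts were 7, 7, 11 and 15 of 39 (17.9%, 17.9%, 28.2% and 38.5%), against 80.1%, 78.6%, 80.3% and 75.8% of all genes. Without the peak at Hoxc6 the last count was 6 (15.4%).

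**Figure D3:**
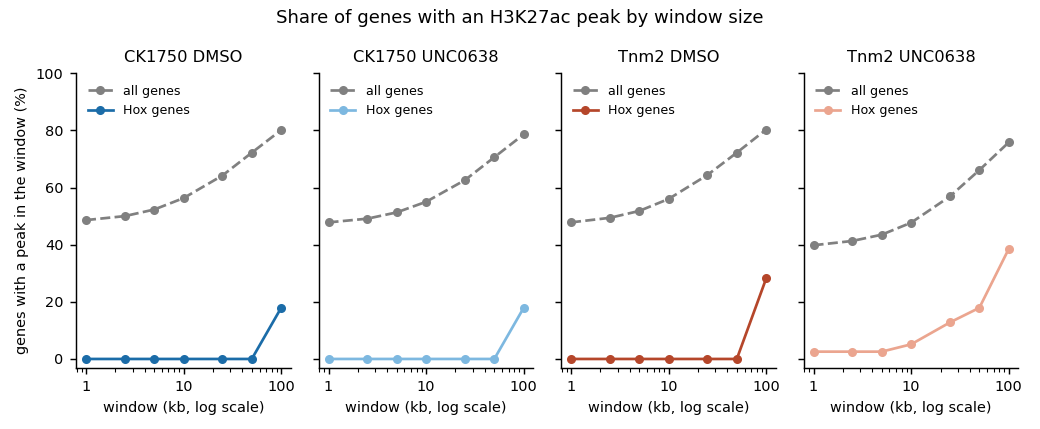
Share of genes with an H3K27ac peak by window size. The x axis is the window on each side of a start site in kb on a log scale, the y axis the share of genes in percent, the solid line the 39 Hox genes and the dashed line all 21938 protein-coding genes. At 50 kb the Hox share is 0 in 3 lists and 17.9% in Tnm2 UNC0638, where it rests on the peak at Hoxc6, below the line for all genes in every list.

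In CK1750 DMSO each cluster lay in a gene-rich stretch without a peak, and other stretches held as many genes. Between neighbouring peaks of a list the median stretch was 16.7 kb in CK1750 DMSO, 18.3 kb in CK1750 UNC0638, 13.2 kb in Tnm2 DMSO and 25.7 kb in Tnm2 UNC0638. In CK1750 DMSO the stretch around Hoxa measured 459.9 kb and held the start sites of 14 protein-coding genes, and those around Hoxb (605.7 kb), Hoxc (492.6 kb) and Hoxd (245.8 kb) held 11 each. Of 27376 stretches in that list, 16469 held the start site of no protein-coding gene and 223 held those of 8 or more. Of these 223, 51 (22.9%) consisted mostly of olfactory or vomeronasal receptor genes by symbol and 4 mostly of Hox genes. Another 96 consisted mostly of genes that share some other symbol stem, and 72 had no stem in the majority. As many genes as around Hoxa or more were held by 84 stretches, and as many as around the other clusters by 131. The mouse genome divided into bins of 100 kb had 157 bins with 8 or more protein-coding genes. Of these, 16 (10.2%) had no peak in CK1750 DMSO, 17 (10.8%) in CK1750 UNC0638, 19 (12.1%) in Tnm2 DMSO and 19 (12.1%) in Tnm2 UNC0638. In 2 of the 157 bins Hox genes were the majority, and these had no peak in any of the first 3 lists and 1 of them had none in Tnm2 UNC0638.

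Outside the clusters, part of the flanking genes had peaks. Of the 16 nearest protein-coding genes, 2 on each side of each cluster, 10, 10, 10 and 9 had a peak. Over all protein-coding genes the shares were 50.04%, 49.12%, 49.43% and 41.28%. In all lists 9 of the 16 had one, against 39.3% of all genes. With 16 genes, whether the flanks differ from that background was not tested. The 9 were Skap2, Snx10 and Hibadh around Hoxa, Calcoco1, Atp5g2 and Cbx5 around Hoxc, and Lnpk, Mtx2 and Hnrnpa3 around Hoxd. They lay from 60.7 kb (Mtx2) to 894.1 kb (Hnrnpa3) from the outermost member of the cluster. Nearer were Evx2 at 8.75 kb, Ttll6 at 28.9 kb and Evx1 at 52.6 kb, of which Ttll6 had a peak in CK1750 DMSO alone. None of the 4 genes around Hoxb had a peak in all lists. The homeobox gene Evx1 next to Hoxa, Evx2 next to Hoxd, and Calcoco2 and Skap1 around Hoxb had none in any list.

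Genes whose products work with or on Hox genes were counted beside the same background over all protein-coding genes, 50.04%, 49.12%, 49.43% and 41.28%. Of 9 genes for Hox cofactors of the Pbx, Meis and Pknox families, which bind DNA together with Hox proteins, 7, 7, 8 and 7 had a peak and 6 had one in all lists. Pbx3 had scores of 1609.43, 787.87, 817.14 and 297.95. Meis3 had a peak in Tnm2 alone, with scores of 100.74 and 66.77, Meis2 had none in Tnm2 UNC0638, and Pknox2 had none in any list. Of 16 Polycomb genes, 16, 15, 15 and 14 had a peak, among them Ezh2, the methyltransferase for lysine 27 (scores 3100.0, 2157.36, 1695.64 and 748.98). Cbx2 had one in CK1750 DMSO alone, with a score of 71.08. Of 10 genes of the Trithorax group and Kmt2a partners, which keep Hox genes active, 10, 10, 10 and 9 had a peak.

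Of 14 upstream regulators of Hox genes, 7, 8, 6 and 7 had a peak, counts near the background over all protein-coding genes (50.04%, 49.12%, 49.43% and 41.28%), and 6 had one in all lists (Cdx2, Rara, Rarg, Rxra, Rxrb and Ctcf), the first of them a caudal-type homeobox gene, the next 4 genes for retinoic acid receptors and their partners, and the last a gene for an insulator protein. The retinoic acid enzymes Aldh1a2 and Cyp26a1, the receptors Rarb and Rxrg, and Cdx1 and Cdx4 had none in any list. Cdx2 had top scores of 762.77, 1307.4, 955.68 and 223.01. Of 8 even-skipped and ParaHox relatives, the nearest kin of Hox genes, 1, 1, 2 and 1 had a peak; Cdx2 had one in all lists and Pdx1 in Tnm2 DMSO alone, with a score of 58.83.

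Other homeobox genes, of which 54 were listed, fell between the Hox genes and the background. In CK1750 DMSO 16 had a peak, in CK1750 UNC0638 12, in Tnm2 DMSO 13 and in Tnm2 UNC0638 11. In all lists 10 had one and in none 37. Nkx2-1, the homeobox gene that marks lung epithelium, had scores of 1267.68, 1037.16, 1516.92 and 972.47, and Irx5 had 3100.0, 3100.0, 3100.0 and 1263.98. The same 3100.0 was the score at Ezh2, Krt8 and Hnrnpa3 in CK1750 DMSO, so it does not order these peaks. Clustered homeobox genes were not all without peaks. Dlx1, which lies as a pair with Dlx2 on the same chromosome as Hoxd, had top scores of 365.68, 173.84, 1399.22 and 410.28. Dlx2 had a score of 86.41 in CK1750 DMSO, no peak in CK1750 UNC0638, and scores of 1934.03 and 849.28 in Tnm2. These scores, too, are not compared between lists. Dlx3, Dlx4, Dlx5 and Dlx6 had a peak in none of the lists.

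**Figure D4:**
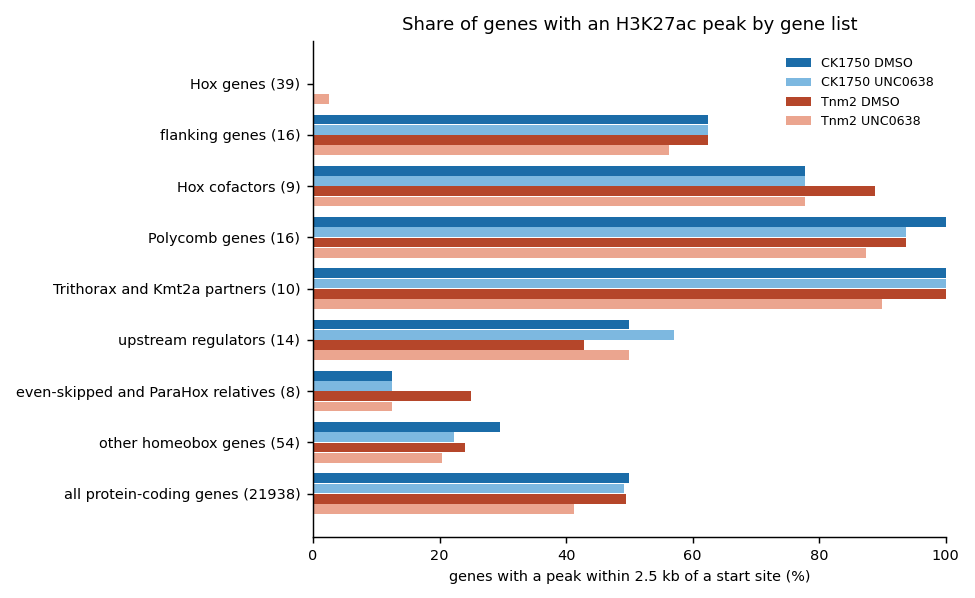
Share of genes with an H3K27ac peak by gene list. Bars give the percent of each list's genes with a peak within 2.5 kb of a start site in the 4 lists of peaks, and the number of genes stands in brackets. The 39 Hox genes have no visible bar in 3 lists and 2.56% in Tnm2 UNC0638, while 54 other homeobox genes and the 16 flanking genes have bars in every list.

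Peaks were also counted at marker genes of cell types. Over all protein-coding genes 50.04%, 49.12%, 49.43% and 41.28% had a peak, and lists of 3 or 5 genes are too short to set firmly against that. Of 5 lung epithelium markers, 4, 4, 4 and 5 had a peak, with Sftpb the one that had it in Tnm2 UNC0638 alone. Of 5 epithelial markers 4 had one in each list (Cdh1, Krt8, Krt18 and Krt19, not Epcam). Of 5 mesenchymal markers 3, 3, 3 and 2 had one, near that background, and Vim and Zeb1 had one in all lists. Of 3 leukocyte markers 0 had one, and of 3 endothelial markers 0, 0, 1 and 1, the one being Pecam1 in Tnm2.

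Many Hox genes have CpG-rich starts, a feature that went with peaks over all genes. Within 500 bases of the annotated 5′ end, the median GC content of Hox genes was 57.4% against 54.7% for all protein-coding genes, and the ratio of observed to expected CpG was 0.678 against 0.552. Windows with at least 50% GC and a ratio of at least 0.6 were called island-like. They were found at 24 of 39 Hox genes (61.5%) and at 44.4% of all genes. Each window lies at the outermost annotated start, which need not be that of a coding transcript. The windows of Hoxd3 and Hoxd4 (5′ ends at 74711927 and 74711929) nearly coincide, and the 24 count them both. Hoxd4 is island-like there (58.6% GC, ratio 0.718), unlike the bases before its RefSeq start (3 CpGs at 40.4% GC). Among the 9740 island-like genes, 80.4%, 79.2%, 77.8% and 67.4% had a peak, and 0 of the 24 island-like Hox genes had one in any list. At a ratio of 0.8 or more, 87.8%, 86.9%, 86.0% and 78.0% of 4472 genes had a peak, and 0 of the 8 Hox genes in that class did. Hoxa5, with the highest ratio of the members (0.996), and Hoxa13 (0.931), Hoxa4 (0.919) and Hoxd13 (0.905) belong to it. Hoxc6 has a ratio of 0.536 and is not island-like, in a window at the start of a transcript not annotated as protein coding.

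**Figure D5:**
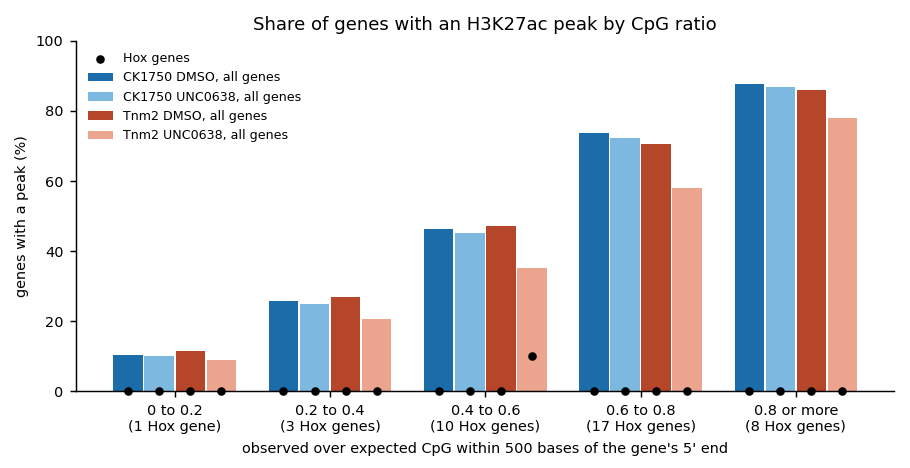
Share of genes with an H3K27ac peak by CpG ratio. Bars give, for all protein-coding genes in 5 classes of observed over expected CpG, the percent with a peak in each list, and black points the same for the Hox genes of the class, whose number stands below. The bars rise to 87.8% in the class at 0.8 or more, while the Hox points stay at 0 apart from the class of Hoxc6 in Tnm2 UNC0638.

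Short motifs were counted in the 250 bases before and 50 after the annotated 5′ end, on both strands. The TATA-like TATAAA was in 6 of 39 Hox windows (15.4%) and in 12.6% of all genes' windows, and CCAAT, the box bound by NF-Y, in 26 (66.7%) against 8558 of 21938. AGGTCA, a core site of nuclear receptors such as those for retinoic acid, was in 6 (15.4%) against 14.8%, and TGATTNAT, a site of Pbx and Hox pairs, in 3 (7.69%) against 2.69%. The windows of Hoxd3 and Hoxd4 nearly coincide, and both genes are counted for CCAAT and for AGGTCA. These shares describe the letters in the windows alone.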

How the data were processed

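H3K27ac ChIP-seq was done by the authors, who mapped reads to mouse build 38 (mm10) with bowtie2 and called peaks with MACS 1.4.2 (cutoff P of 1e-05). The score of each deposited peak is the −log10 of its P value times 10. Libraries of a group were pooled into 1 list, which libraries is not stated, and read depth is unknown, so scores were used within a list alone.

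Positions were written as 1-based. Genes and start sites came from GENCODE release M 21. A gene had a peak when at least 1 bp of a peak lay within 2.5 kb of any of its start sites. All 39 members were counted, with comparison genes by fixed lists, and values of some genes are not reported here. The members and lists were chosen with earlier results of these data known. The wider windows, CpG classes, motif counts, bins and stretches were added after the counts had been seen. Promoter and miRNA sequences are RefSeq's for GRCm38.p6 (22 of 39 members matched the promoter table). The CpG windows came from the genome sequence at the annotated 5′ end, for all 39. The overlap script was tested on data with known answers. Alternatives were stricter scores, equal peak numbers, other windows and start sites. Python 3.11.15, numpy 2.4.6, scipy 1.17.1 and matplotlib 3.10.9 were used.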

Additional observations from a re-analysis of the deposited data

How the results depend on the processing

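Of 114 values recomputed under alternatives for 16 results, 95 kept the value as reported and 19 moved, with 0 reversed. Most of these results were 0, which settings that only drop peaks or start sites, or narrow the window, cannot change. A count also cannot reverse. The tally was thus largely fixed beforehand and is no measure of how firm the results are. The Hox count in Tnm2 UNC0638 went from 1 to 0 with a score of at least 100, with a peak required to cover a start site, and with start sites of protein-coding transcripts alone. Under the same 3 settings the counts of members found there and not in Tnm2 DMSO, or not in CK1750 UNC0638, also went from 1 to 0. At a score of at least 100 the length covered in the clusters in that list went from 0.59 to 0 kb. With 18794 peaks kept in every list, with windows of 1 or 5 kb, or with each peak given to its nearest start site, the counts were those reported. Without the peak at Hoxc6, also left out after seeing the data, the count was 0 and the covered length 0 kb. Windows of 10, 25, 50 and 100 kb, added after seeing the data, gave 2, 5, 7 and 15 Hox genes in Tnm2 UNC0638, and at 100 kb 7, 7 and 11 in CK1750 DMSO, CK1750 UNC0638 and Tnm2 DMSO.

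No paired analysis was possible because each group has 1 merged list and no value per replicate, and no replicate was left out for the same reason. Depth is unknown and a list ends at a score of 50, so acetylation too weak to be called cannot be told from none.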
